A study of Mus musculus with 18 samples.

Results

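The effect of the N171-HD82Q transgene at 10 weeks of age was formed separately in cerebellum and in hippocampus, and the 2 effects were then compared gene by gene. Every array whose title gives an age of 10 weeks was used, which is 12 of the 18 arrays of the series. They form 4 groups of 3 arrays: wild-type cerebellum, transgenic cerebellum, wild-type hippocampus and transgenic hippocampus. All animals of these 12 arrays were male. The transgenic mice, of strain PrP-htt-N171-82Q, carry an N-terminal fragment of huntingtin with an expanded glutamine repeat, expressed from the mouse prion protein promoter, and the controls were wild-type littermates. Both genotypes had a mixed DBA and C57BL/6J background. Each array was hybridised with RNA pooled from 3 to 4 animals, so p-values measure the spread between pools and not between single mice. The labels do not say whether the cerebellar and hippocampal pools came from the same animals. The extraction text speaks of hippocampi alone, and the cerebellar extraction was taken to be alike.

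Expansion of the glutamine repeat of huntingtin causes Huntington's disease, in which the striatum is hit first and other brain regions follow. The prion protein promoter is active in most neurons of the brain, so that both tissues carry the fragment. The cerebellum is dominated by small granule neurons, whose fibres excite Purkinje cells and are checked by inhibitory interneurons. The hippocampus holds dentate granule neurons and CA pyramidal neurons, which serve memory and the storage of spatial information.

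Values are log2 expression as deposited by the authors. The arrays of each tissue were taken as normalised in a run of their own: their medians over genes were 8.02 to 8.11 in cerebellum and 6.68 to 6.76 in hippocampus, and levels were never tested between tissues. A transgenic minus wild-type difference (the effect) is formed within 1 tissue and does not depend on that offset. The labels matched the defining markers. Gabra6, the GABA receptor subunit of cerebellar granule neurons, lay at percentile 99.8 of all genes in cerebellum and 7.8 in hippocampus. Zic1 and Cbln3 lay at percentiles 99.6 and 99.4 in cerebellum, and Neurod6, a transcription factor of pyramidal neurons, at 17.5 in cerebellum against 91.3 in hippocampus. A gene was taken as expressed in a tissue where the higher of its 2 genotype means exceeded the 95th percentile of 1027 olfactory receptor genes there, which was 6.89 in cerebellum and 5.88 in hippocampus. By this rule 13056 of 19938 genes were expressed in both tissues, 908 in cerebellum alone, 500 in hippocampus alone and 5474 in neither.

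More genes changed with genotype in cerebellum than in hippocampus, and fewer than 1 in 10 of the cerebellar calls were shared. A gene was called where its limma p-value, adjusted over all 19938 genes by the Benjamini-Hochberg method, was below 0.05. In cerebellum 2065 genes (10.4%) were called, 882 higher and 1183 lower in transgenic mice. In hippocampus 419 genes (2.1%) were called, 95 higher and 324 lower. The balance depended on the scaling: quantile normalisation within each tissue gave 1238 higher and 1187 lower in cerebellum and 170 higher and 408 lower in hippocampus. A change of at least 1.5-fold was reached by 273 of the cerebellar and 60 of the hippocampal calls. Both tissues called 149 genes, which is 35.6% of the hippocampal and 7.22% of the cerebellar calls. The test of the difference itself, cerebellar effect minus hippocampal effect, called 585 genes (2.93%), 268 with the higher and 317 with the lower effect in cerebellum. That split was 302 and 286 with median centring of the arrays, 437 and 429 with quantile normalisation within each tissue and 380 and 378 with quantile normalisation over all 12 arrays. The count for the difference fell to 351 without transgenic hippocampus array 3 and to 373 without transgenic cerebellum array 3. The genes called for genotype in hippocampus numbered 248 and 201 without wild-type hippocampus arrays 1 and 2. They numbered 257, 270 and 157 without transgenic hippocampus arrays 1, 2 and 3. Those called for genotype in cerebellum numbered 1291 and 1359 without wild-type cerebellum arrays 1 and 3, and 1246 and 1297 without transgenic cerebellum arrays 2 and 3.

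**Figure D1:**
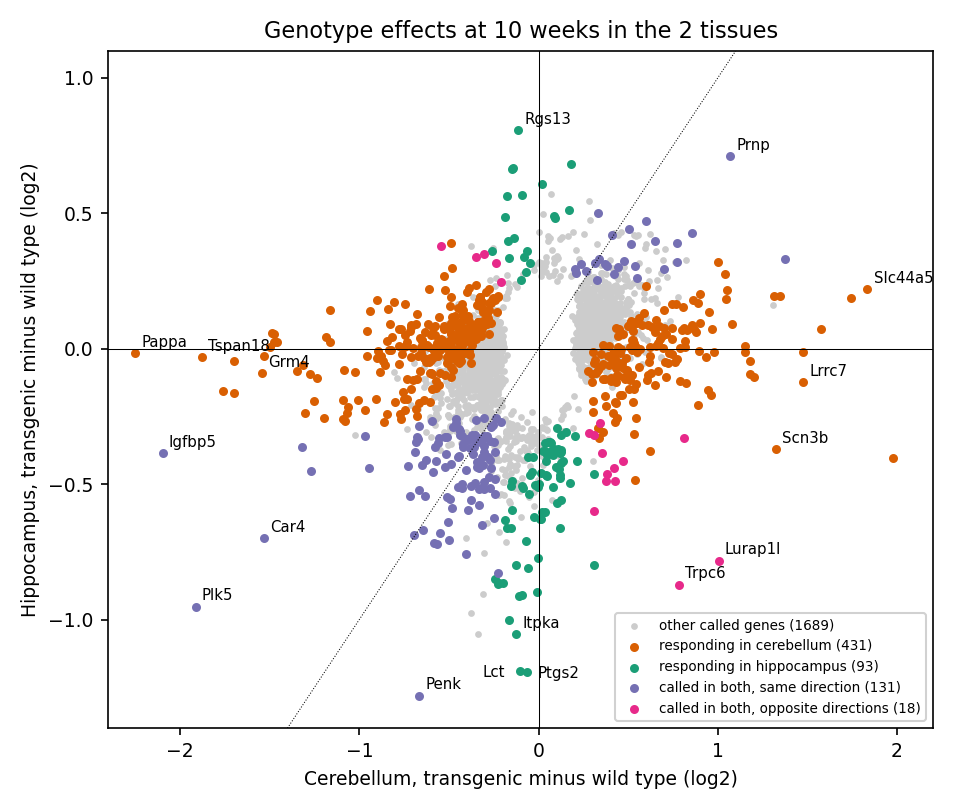
Transgenic minus wild-type difference (log2) in cerebellum on the horizontal and in hippocampus on the vertical axis, for every gene called in at least 1 of the 3 tests; the dotted line marks equal effects and colours mark the response classes. Most orange points, the 431 genes that responded in cerebellum, lie along the horizontal axis, while Trpc6 and Lurap1l lie in the quadrant of opposite signs.

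A gene was said to respond in 1 tissue only where it was called there, not called in the other and called for the difference as well. On that rule 431 genes responded in cerebellum (164 higher, 267 lower) and 93 in hippocampus (20 higher, 73 lower). In hippocampus 0.476% of all genes were called higher and 1.63% lower. Another 131 genes were called in both tissues with the same direction, 26 higher and 105 lower. Another 18 were called in both with opposite directions. A further 1485 genes were called in cerebellum and 177 in hippocampus without a called difference, and these are not described as particular to a tissue. The median size of the effect was 0.54 (log2) over the cerebellum-responding genes, with 0.08 for the same genes in hippocampus. For the hippocampus-responding genes it was 0.49, with 0.10 in cerebellum. With the replicate number as a block within each tissue the same-direction count was 87 and the opposite-direction count 10. Without transgenic hippocampus array 3 the 4 counts were 286, 42, 48 and 6 in the order given, and without transgenic cerebellum array 3 the cerebellar count was 278 and the opposite-direction count 11. The hippocampal count was also 55, 61 and 59 without wild-type hippocampus array 2, transgenic hippocampus array 2 and transgenic cerebellum array 1. The same-direction count was also 73, 60, 80, 86 and 87 without wild-type hippocampus arrays 1 and 2, transgenic hippocampus arrays 1 and 2 and wild-type cerebellum array 1. The opposite-direction count was also 10, 7 and 11 without wild-type hippocampus arrays 1, 2 and 3, 8 without transgenic hippocampus array 2, and 10 and 9 without wild-type and transgenic cerebellum array 1.

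Most genes that responded in 1 tissue alone were expressed in both tissues. Of the 431 cerebellum-responding genes 368 were expressed in both tissues, 51 in cerebellum alone and 12 in neither. Of the 93 hippocampus-responding genes 77 were expressed in both, 15 in hippocampus alone and 1 in neither. For 234 of the 368 and for 35 of the 77, the 95% interval of the effect in the other tissue lay within 0.5 times the size of the effect in the responding tissue. Of the 131 genes with the same direction 127 were expressed in both tissues, as were all 18 with opposite directions. In genes expressed in neither tissue the median effect was -0.09 in cerebellum, with 4615 of 5474 estimates below 0, and -0.00 in hippocampus. Over all genes the median effect was -0.05 in cerebellum and 0.01 in hippocampus.

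**Figure D2:**
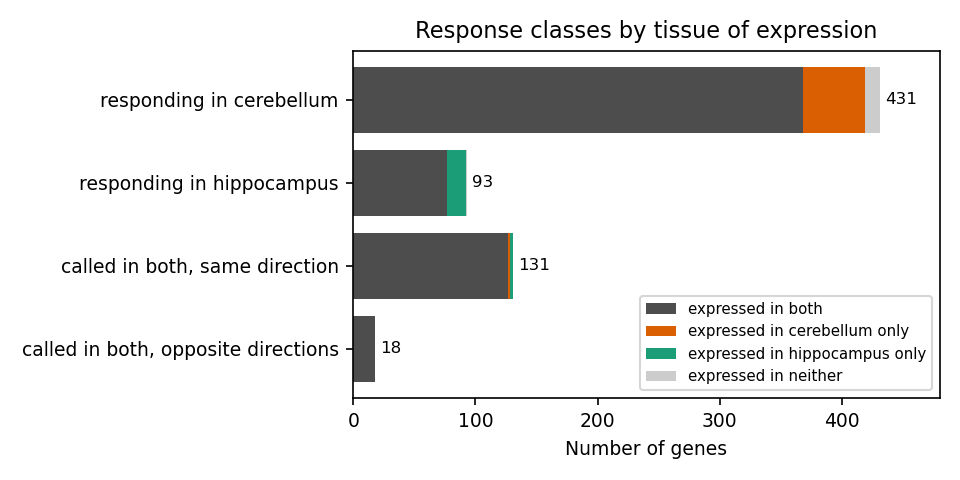
Number of genes in each response class, divided by the tissue or tissues in which the gene was expressed. Genes expressed in both tissues (dark grey) make up most of every class, 368 of 431 and 77 of 93 in the single-tissue classes.

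The clearest opposite responses were those of Lurap1l and Trpc6, which rose in transgenic cerebellum and fell in transgenic hippocampus. Lurap1l measured 8.12, 7.75 and 8.02 in wild-type cerebellum and 9.04, 9.03 and 8.83 in transgenic cerebellum. In hippocampus it measured 8.60, 8.67 and 8.71 in wild type and 7.92, 7.88 and 7.82 in transgenic mice. The groups did not overlap in either tissue, which held for 35.1% of all genes in cerebellum and 15% in hippocampus. The effects of Lurap1l were 1.00 and -0.78 (SE 0.09 each, adjusted p = 5.26e-06 and 0.000323). Its difference of effects was 1.79 (SE 0.13, adjusted p = 3.58e-06), among the smallest p-values of all genes.

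Trpc6, a cation channel opened by diacylglycerol and a marker of dentate granule neurons, measured 7.59, 7.42 and 7.65 in wild-type and 8.51, 8.32 and 8.16 in transgenic cerebellum. In hippocampus the wild-type values were 8.01, 8.04 and 8.27 and the transgenic values 7.24, 7.26 and 7.21. All transgenic values lay above the wild-type values in cerebellum and below them in hippocampus, with effects of 0.78 and -0.87 (SE 0.09 each) and a difference of 1.65 (adjusted p = 5.56e-06). Zfpm1, a cofactor of GATA transcription factors, had effects of 0.43 and -0.49 (SE 0.08 each, adjusted p of the difference 0.000579). Raver2, an RNA-binding protein, had effects of 0.47 and -0.41 (SE 0.07 each, adjusted p of the difference 0.000172). Calb2 encodes calretinin, the calcium buffer of cerebellar granule neurons. It measured 12.63, 12.70 and 12.44 in wild-type and 12.97, 12.98 and 12.95 in transgenic cerebellum, an effect of 0.38. In hippocampus, where mossy cells and some interneurons hold it, it fell by 0.46, from 8.78, 8.92 and 8.79 to 8.50, 8.31 and 8.29.

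Of the 18 opposite genes 13 were higher in transgenic cerebellum and lower in transgenic hippocampus, and 5 were the reverse. Both tissue calls of Lurap1l, Trpc6, Zfpm1, Raver2 and Calb2 remained whichever 1 array was left out, but those of Calb2 were lost with all 18 arrays in 1 fit (adjusted p = 0.112 in cerebellum and 0.149 in hippocampus). Those of Chrm3, a muscarinic acetylcholine receptor, were 0.42 and -0.44 and were lost in hippocampus without any 1 of 9 arrays, with an adjusted p of 0.169 without transgenic hippocampus array 3. Tmem163, a zinc transporter of synaptic vesicles, ran the other way at -0.55 and 0.38, and its hippocampal call was lost without 1 of 4 arrays, with 0.15 without the same array. Kcnt1, a sodium-activated potassium channel, had effects of -0.35 and 0.34, and its hippocampal adjusted p reached 0.119 without transgenic hippocampus array 1 or 2. Pkp2, a plaque protein of cell junctions, and Dok6, an adaptor of receptor tyrosine kinases, each lost a call without several single arrays, with adjusted p of up to 0.159 and 0.171 in hippocampus, without transgenic arrays 3 and 2. With the replicate number as a block, the hippocampal adjusted p was 0.0528 for Chrm3, 0.0529 for Tmem163, 0.0537 for Kcnt1 and 0.066 for Pkp2, and Dok6 stood at the threshold with 0.05. Counted by the sign of the estimates alone, 356 of the 585 genes with a called difference pointed in opposite directions, 160 with cerebellum above 0 and 196 with cerebellum below 0. For most of these an effect in 1 tissue was not called.

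**Figure D3:**
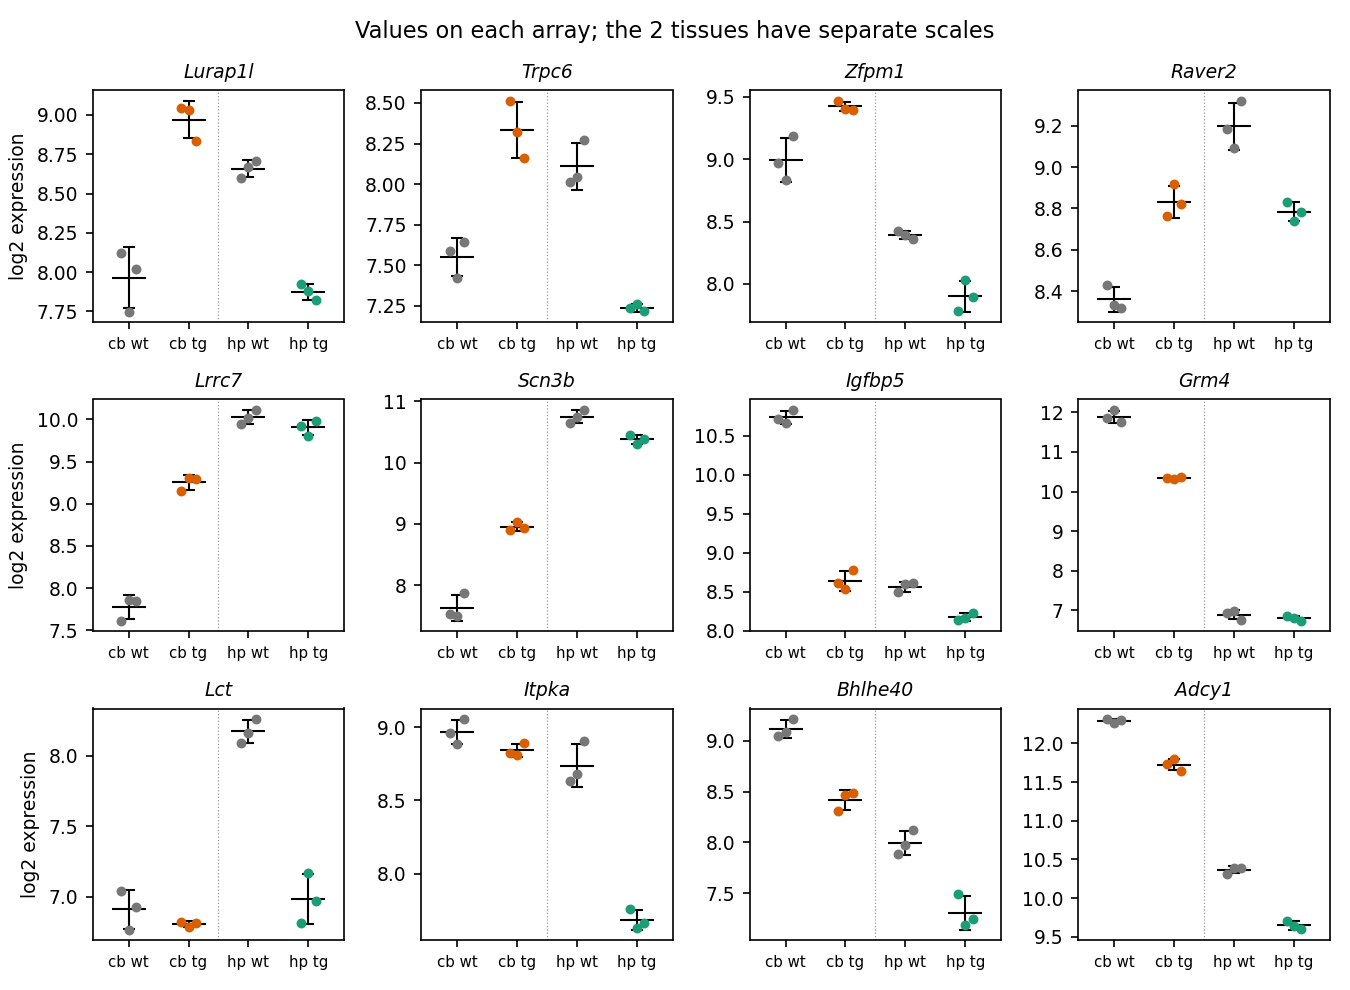
Log2 expression on each array for 12 genes, with wild-type arrays in grey and transgenic arrays in orange (cerebellum, cb) or green (hippocampus, hp); bars give the mean and SD of 3 arrays, each axis covers the range of its gene, and levels are not comparable across the dotted line. The top row crosses over between tissues, the next row moves chiefly in cerebellum, and the last row shows falls in hippocampus alone (Lct, Itpka) or in both tissues (Bhlhe40, Adcy1).

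Lrrc7 was among the genes that rose most in cerebellum without a call in hippocampus. It encodes densin, a scaffold of the postsynaptic density. It measured 7.61, 7.86 and 7.85 in wild-type and 9.16, 9.31 and 9.29 in transgenic cerebellum, an effect of 1.48 (SE 0.08, adjusted p = 4.69e-08). In hippocampus it measured 9.95, 10.02 and 10.11 in wild type and 9.93, 9.80 and 9.99 in transgenic mice, and the 95% interval of that effect was -0.30 to 0.05. Scn3b, an auxiliary subunit of voltage-gated sodium channels, rose from 7.53, 7.50 and 7.87 to 8.90, 9.03 and 8.94 in cerebellum. In hippocampus it went from 10.65, 10.74 and 10.86 to 10.45, 10.31 and 10.38, an estimate of -0.37 that was not called (adjusted p = 0.0567). Its difference of effects was 1.70 (SE 0.13, adjusted p = 5.21e-06).

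Slc44a5, a member of the choline transporter-like family, showed a cerebellar rise of 1.83 (SE 0.09), from 7.84, 7.75 and 7.58 to 9.55, 9.66 and 9.45. Its hippocampal estimate was 0.22 with an interval of 0.03 to 0.40. Plppr1, a membrane protein of neurite growth, rose by 1.74 in cerebellum, and Oprl1, the nociceptin receptor, by 1.58. The hippocampal estimates of Plppr1 and Oprl1 were 0.19 and 0.07, and both genes were expressed in hippocampus. Synpr, or synaptoporin, a synaptic vesicle membrane protein, rose by 1.20 in cerebellum from 9.32, 9.17 and 9.06 to 10.42, 10.46 and 10.28. Its hippocampal arrays spanned 8.15 to 8.35 with overlapping genotypes. For 2 of the top rises the gene was expressed in cerebellum alone. Sfrp4, a secreted Wnt antagonist, rose by 1.18, and Pde3a, a cyclic nucleotide phosphodiesterase, rose by 1.15. Their hippocampal arrays lay between 5.50 and 5.70 and between 5.58 and 5.64, below the expression threshold of that tissue.

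The largest rise by estimate among cerebellum-responding genes was that of Ifi203, an interferon-inducible gene, at 1.98 (SE 0.31). Its transgenic cerebellar values of 8.65, 8.12 and 9.56 were widely spread above wild-type values of 6.98, 6.61 and 6.81. In hippocampus wild-type array 3 stood at 6.93 and the other 5 arrays between 5.58 and 6.09, with no call. Of 24 listed genes of the interferon response and antigen presentation, 0 rose and 1 fell in cerebellum (4.42% and 5.93% of all genes).

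Among the genes that fell in cerebellum alone Pappa, a metalloproteinase that cleaves insulin-like growth factor binding proteins, had the largest estimate, -2.25 (SE 0.15). The median size of the effect was 0.55 over the 164 rises and 0.53 over the 267 falls. It measured 9.09, 9.21 and 8.49 in wild-type and 6.77, 6.59 and 6.70 in transgenic cerebellum, which ended below the threshold of expression, and it was not expressed in hippocampus. Igfbp5, which binds insulin-like growth factors, fell by 2.10 (SE 0.07), from 10.72, 10.67 and 10.83 to 8.61, 8.53 and 8.78. In hippocampus Igfbp5 fell by 0.39, from 8.49, 8.60 and 8.61 to 8.14, 8.16 and 8.23, a call that was lost without wild-type array 2 (adjusted p = 0.065) or transgenic array 1 (adjusted p = 0.0542). Its difference of effects of -1.71 had the smallest p-value of all genes (adjusted p = 2.26e-06).

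Grm4, the metabotropic glutamate receptor on granule neuron terminals, fell by 1.55 in cerebellum (SE 0.08, adjusted p = 2.37e-08). It measured 11.85, 12.06 and 11.76 in wild-type and 10.35, 10.33 and 10.36 in transgenic cerebellum. In hippocampus all 6 arrays lay between 6.74 and 6.97 with overlapping genotypes. Eomes, or Tbr2, the transcription factor of unipolar brush cells, fell by 1.76 from 9.73, 9.90 and 9.55 to 7.95, 7.87 and 8.08 and was not expressed in hippocampus. Chil5, a chitinase-like protein, and Stap2, a signalling adaptor, each fell by 1.70. Vipr2, a receptor of vasoactive intestinal peptide, fell by 1.46. These last 3 genes were also expressed in cerebellum alone.

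Other strong falls in cerebellum concerned genes that both tissues express. Tspan18, a tetraspanin that regulates calcium entry, fell by 1.88 in cerebellum, from 8.82, 8.82 and 9.14 to 7.00, 6.97 and 7.18. In hippocampus it measured 8.28, 8.36 and 8.43 in wild type and 8.36, 8.21 and 8.41 in transgenic mice, an interval of -0.23 to 0.17. Clstn2, or calsyntenin 2, a postsynaptic cadherin-related protein, fell by 1.23 against an estimate of -0.11 in hippocampus. Mapk12, a p38 family kinase, and Prag1, a pseudokinase of the cytoskeleton, fell by 1.53 and 1.48, with hippocampal estimates of -0.03 and 0.03.

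The hippocampus-responding genes were mostly falls in genes that rank higher in hippocampus than in cerebellum. Lct, the lactase gene, whose transcript marks dentate granule neurons, measured 8.09, 8.16 and 8.26 in wild-type and 6.81, 7.17 and 6.97 in transgenic hippocampus, an effect of -1.19 (SE 0.09, adjusted p = 1.01e-05). In cerebellum it lay at 7.04, 6.77 and 6.93 in wild type and 6.82, 6.79 and 6.82 in transgenic mice, below or near the threshold of expression. Itpka, a kinase of inositol trisphosphate found in dendritic spines, fell from 8.63, 8.68 and 8.90 to 7.76, 7.63 and 7.66 in hippocampus. In cerebellum it went from 8.96, 8.89 and 9.05 to 8.82, 8.81 and 8.89, with an interval of -0.29 to 0.04. Its difference of effects was 0.93 (SE 0.11, adjusted p = 0.00024).

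Ptgs2, which encodes cyclooxygenase 2 and is induced by synaptic activity, fell by 1.19 in hippocampus (SE 0.15), from 8.89, 8.63 and 9.20 to 7.80, 7.54 and 7.81. Its cerebellar arrays overlapped between 6.88 and 7.50. Wfs1, or wolframin, an endoplasmic reticulum protein abundant in CA pyramidal neurons, fell by 0.87 and had a cerebellar estimate of -0.20 (adjusted p = 0.085). Arc, the activity-regulated cytoskeletal protein of synapses, also fell by 0.87, with a cerebellar estimate of -0.22. The called difference of Arc was lost without transgenic hippocampus array 3 (adjusted p = 0.0625), wild-type cerebellum array 2 (0.0512) or transgenic cerebellum arrays 1 (0.0563) and 2 (0.0566). Lrrc10b, Stxbp6, Rasl10a and Alox12b fell by 1.00, 0.85, 0.91 and 0.91, and Rasl10a and Alox12b were expressed in hippocampus alone. Dsp, or desmoplakin, and Neurod6 fell by 0.90 and 0.80 and were likewise expressed in hippocampus alone.

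Rises in hippocampus alone were fewer, 20 genes against 73 falls, with a median size of 0.49 against 0.50. Ntsr1, a neurotensin receptor, went from 6.34, 6.23 and 6.25 to 6.79, 6.85 and 6.88, an effect of 0.57 (SE 0.07). Its cerebellar values lay between 6.41 and 6.68, below the expression threshold of 6.89 in cerebellum. Scn7a, a sodium channel of the sensor type, rose by 0.67 from 5.74, 5.56 and 5.52 to 6.36, 6.36 and 6.09, across the threshold of expression. Rgs13, a regulator of G-protein signalling, rose by 0.81 yet stayed below that threshold in every group, with transgenic values of 5.57, 5.39 and 5.78.

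Genes that changed in the same direction were mostly falls, 105 of 131. Plk5, a polo-like kinase of neurons, fell by 1.91 in cerebellum and by 0.95 in hippocampus (SE 0.13 each). It measured 9.85, 9.98 and 10.29 against 8.24, 7.93 and 8.22 in cerebellum and 7.35, 7.31 and 7.43 against 6.17, 6.63 and 6.43 in hippocampus. The cerebellar fall was the larger (adjusted p of the difference 0.00715). Car4, a membrane carbonic anhydrase, also fell further in cerebellum, by 1.53 against 0.70 (adjusted p of the difference 0.00444).

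Penk, the proenkephalin gene, fell further in hippocampus, from 9.36, 9.20 and 9.34 to 8.07, 8.04 and 7.94, than in cerebellum, where 12.23, 12.18 and 12.20 went to 11.70, 11.65 and 11.27. The effects were -1.28 and -0.67, and the called difference (adjusted p = 0.0222) was lost without transgenic hippocampus array 3 (0.0708), wild-type cerebellum array 2 (0.0515) or transgenic cerebellum arrays 1 (0.0615) and 2 (0.0659). In all, 16 of the 131 genes had a called difference in size, 13 with the larger change in cerebellum and 3 in hippocampus.

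For other shared genes the effects were close. Bhlhe40, a repressor that feeds into the circadian clock, fell by 0.70 in cerebellum and 0.69 in hippocampus, and the interval of the difference was -0.28 to 0.27. Its values were 9.04, 9.09 and 9.21 against 8.31, 8.47 and 8.48 in cerebellum and 7.89, 7.97 and 8.12 against 7.49, 7.18 and 7.24 in hippocampus. Adcy1, the calmodulin-stimulated adenylyl cyclase, fell by 0.56 and 0.72, with an interval of the difference of -0.03 to 0.34. Chgb, or chromogranin B, a protein of dense-core vesicles, fell by 0.55 and 0.68, with an interval of -0.06 to 0.32. Nr4a1, an activity-induced nuclear receptor, fell by 0.72 and 0.54, with an interval of -0.42 to 0.07. Rasd2, a small GTPase named Rhes that is abundant in striatum, fell by 0.65 and 0.67, and Stac2, an adaptor with a C1 domain, by 0.58 and 0.72.

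Prnp, whose promoter drives the transgene, rose in both tissues. It went from 11.75, 11.58 and 11.69 to 12.77, 12.71 and 12.75 in cerebellum, an effect of 1.07, and from 10.56, 10.65 and 10.70 to 11.39, 11.26 and 11.39 in hippocampus, an effect of 0.71 (SE 0.07 each). The difference of 0.36 had an interval of 0.15 to 0.56 and was not called (adjusted p = 0.0594). Whether its probe set also reads RNA of the transgene was not tested. Htt, the mouse huntingtin gene, had estimates of 0.04 and 0.01, with intervals of -0.11 to 0.18 and -0.13 to 0.15.

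The promoters of the genes that fell in both tissues were searched for 4 short motifs bound by activity-dependent or clock factors, in RefSeq windows of assembly GRCm38.p6 that run from 250 bases before to 50 bases after the start site. Of the 19938 genes 15614 had a window, among them 80 of the 105. The cAMP response element TGACGTCA occurred in 2 of the 80 (2.5%), against 2.72% of all windows. The other shares, with both strands searched, were 5% against 8.08% for the AP-1 site TGANTCA, 0% against 1.06% for the EGR site GCGTGGGCG and 13.8% against 9.5% for the E-box CACGTG. None of the 4 occurred in the 14 windows of the opposite genes. The genes that hold the cAMP response element are Chgb and Ptpru, a receptor phosphatase that fell by 0.36 and 0.39 and was chosen here for its motif. They are shown with the motif in capitals, Chgb from chr2:132781544-132781603 on the plus strand and Ptpru from chr4:131838286-131838345 on the minus strand.
Chgb: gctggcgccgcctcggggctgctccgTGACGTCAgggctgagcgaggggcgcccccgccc
Ptpru: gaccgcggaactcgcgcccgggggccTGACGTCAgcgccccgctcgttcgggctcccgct
The motif ends 64 bases before the start site of Chgb and 33 bases before that of Ptpru.

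Genes that fell in 1 tissue alone mostly ranked higher in that tissue than in the other. Levels are given as percentiles within a tissue of the mean over both genotypes, and the change itself enters that mean. Of the 267 genes that fell in cerebellum alone, 57 (21.3%) had the higher percentile in hippocampus, against 51.4% of all genes, and their median percentiles were 70.8 in cerebellum and 60 in hippocampus. Of the 164 that rose in cerebellum alone, 100 (61%) had the higher percentile in hippocampus, with medians of 64 and 71.6. Of the 73 that fell in hippocampus alone, 64 (87.7%) ranked higher in hippocampus, with medians of 62.2 in cerebellum and 82.4 in hippocampus. The 20 rises in hippocampus alone also mostly ranked higher there, 13 of 20 (65%). Of the 105 genes that fell in both tissues 69 (65.7%) ranked higher in hippocampus, with medians of 76.6 in cerebellum and 84 in hippocampus. Among genes expressed in both tissues 51.2% ranked higher in hippocampus. There the counts were 55 of 224 for falls in cerebellum, 98 of 144 for rises in cerebellum and 55 of 64 for falls in hippocampus. For rises in hippocampus the count was 6 of 13, so that most of these did not rank higher there. The 13 opposite genes that rose in cerebellum had median percentiles of 68.9 there and 85.8 in hippocampus, and the 5 that fell in cerebellum 94.1 and 73.5. These counts describe the called genes and carry no test.

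**Figure D4:**
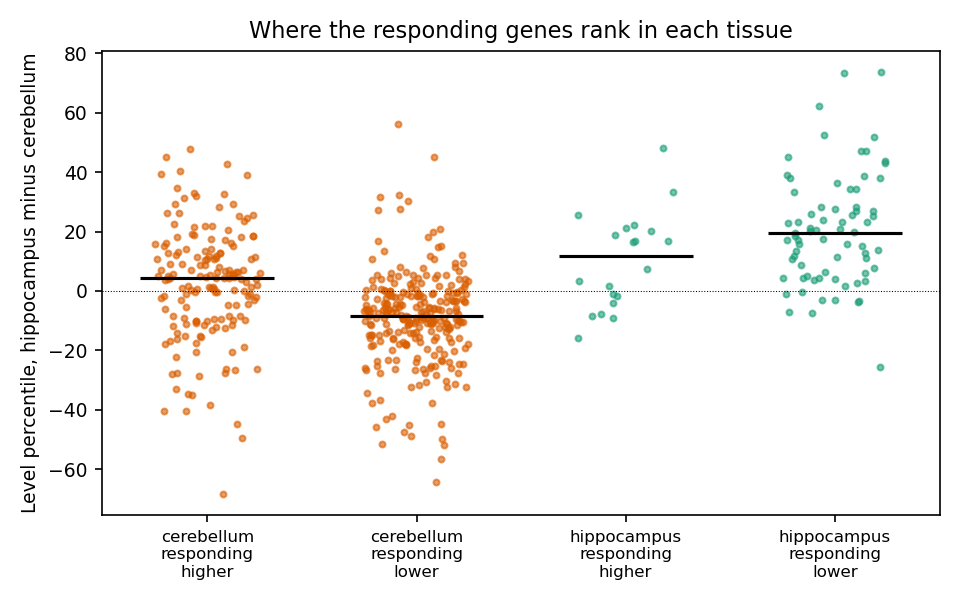
Each point is a gene that responded in 1 tissue; the vertical axis gives its level percentile in hippocampus minus that in cerebellum, and bars give the median of each set. Genes lower in transgenic hippocampus sit mostly above 0 (64 of 73), and genes lower in transgenic cerebellum mostly below 0 (209 of 267).

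Gene lists drawn from textbook knowledge were used to describe functions, each by its count of called members. They were chosen with earlier results of these data known, so their counts are not independent of these data. They carry no test of their own, and nothing is called particular to a list. The counts stand beside the shares of all genes called, which are 10.4% in cerebellum (4.42% higher, 5.93% lower), 2.1% in hippocampus (0.476% higher, 1.63% lower) and 2.93% for the difference. Medians of a list are effects in log2 and stand beside -0.05 for all genes in cerebellum and 0.01 in hippocampus. Other lists were counted but are not described. In cerebellum and hippocampus they had 17.4% and 0% of ribosomal protein genes called, and 18.5% and 0% of proteasome genes. The shares were 30.4% and 21.7% for REST target genes and 18.2% and 0% for strain-variable genes.

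Markers of dentate granule neurons fell mainly in hippocampus. There 14 of 19 fell (all genes, 1.63% lower) with a median of -0.62, and in cerebellum 3 fell and 2 rose (5.93% and 4.42% of all genes) with a median of -0.06. The difference was called for 11 of 19, 10 of them with the higher effect in cerebellum (1.34% of all genes) and 1 with the lower (1.59%). The mean of the list by array was 8.13 to 8.28 in wild-type and 7.61 to 7.66 in transgenic hippocampus, and 8.42 to 8.59 against 8.38 to 8.44 in cerebellum. Most members were expressed in both tissues, 15 of 19, and among these Rfx3, a ciliary transcription factor, had effects of -0.63 in hippocampus and 0.01 in cerebellum. Prox1, the transcription factor that sets dentate granule identity, rose by 0.33 in cerebellum and had a hippocampal estimate of -0.29. Its cerebellar call was lost without transgenic cerebellum array 1 (adjusted p = 0.0504) or 2 (0.0569), and its called difference of 0.63 remained without any 1 array. The cerebellar median of the list turned to 0.02 under quantile normalisation. In bulk tissue fewer cells of a type and less RNA per cell cannot be told apart.

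Of 17 CA pyramidal markers 6 fell in hippocampus, with a median of -0.30, and 1 fell in cerebellum, with a median of -0.13. Beside Wfs1 and Neurod6 these include Bok, a BCL2 family member, at -0.60 and Spink8, a protease inhibitor, at -0.80 in hippocampus. Spink8 was expressed in hippocampus alone. Bok was expressed in both and had a cerebellar estimate of 0.03.

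Of 15 markers of cerebellar interneurons 12 fell in cerebellum (80% against 5.93% of all genes, median -0.33) and 5 in hippocampus (33.3% against 1.63%, median -0.05). Of 16 markers of brainstem and deep cerebellar nuclei 5 also fell in cerebellum (median -0.30, 14 estimates below 0), and 8 fell without wild-type hippocampus array 1 and wild-type cerebellum array 2. Of the 16, 7 were expressed in neither tissue. Among all genes expressed in neither, 4615 of 5474 cerebellar estimates lay below 0. The mean of these 16 by array was 7.48 to 7.72 in wild-type and 7.26 to 7.50 in transgenic cerebellum. In hippocampus limma called 0 of the 16, and 1 had an unadjusted p below 0.05. The glycine transporter Slc6a5 is on both lists, and the part of such tissue in the result was not tested. Of the interneuron markers 5 were called in both tissues, and Lgi2, a secreted leucine-rich protein, and Tfap2b, a transcription factor of the inhibitory lineage, had a called difference. That of Lgi2 was lost without any 1 of 8 arrays and that of Tfap2b without any 1 of 8, with adjusted p of up to 0.0782 and 0.0835. The highest values came without transgenic hippocampus array 3 and transgenic cerebellum array 1.

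Of 23 markers of cerebellar granule neurons 11 fell and 3 rose in cerebellum (60.9% against 10.4% of all genes, median -0.19), and 2 fell in hippocampus (8.7% against 2.1%, median -0.05). Cbln1, a synaptic organiser released by granule neurons, fell from 12.73, 12.83 and 12.75 to 12.15, 12.23 and 12.18 in cerebellum, an effect of -0.59. Neurod1, a neuronal differentiation factor, fell by 0.39 in cerebellum with a hippocampal estimate of 0.22, and Chn2, a Rac GTPase-activating protein, fell by 0.33 with a hippocampal estimate of 0.19. Gabra6 itself was not called (estimate -0.13). Of 20 Purkinje markers 5 fell in cerebellum and 3 in hippocampus, with medians of -0.16 and -0.04.

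**Figure D5:**
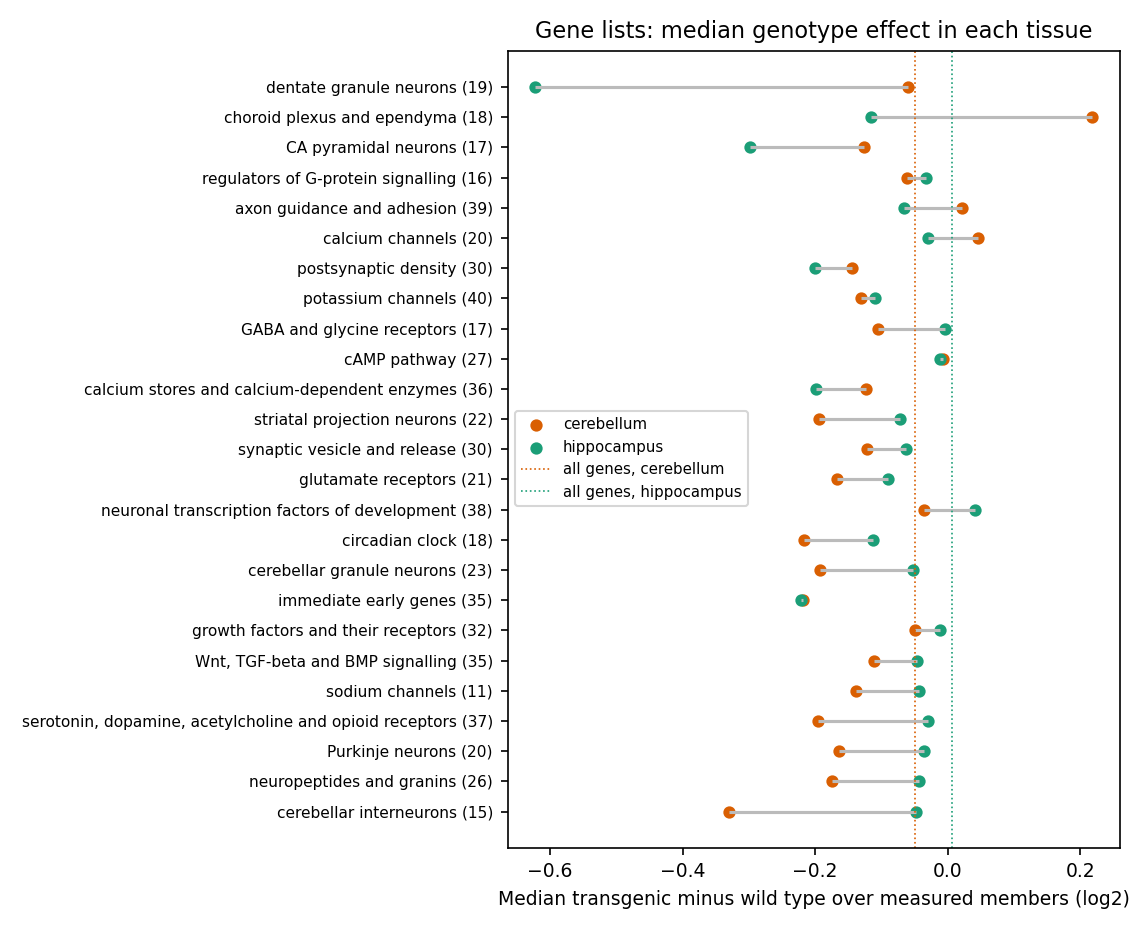
Median transgenic minus wild-type difference (log2) over the measured members of 25 gene lists, with the number of members in brackets; dots give cerebellum (orange) and hippocampus (green) and dotted lines the median of all genes. Dentate granule markers lie at -0.62 in hippocampus and -0.06 in cerebellum, cerebellar interneuron markers at -0.05 and -0.33, and immediate early genes at -0.22 in both.

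Immediate early genes, which neurons switch on within minutes of activity, had falls in both tissues. Of 35 genes 16 fell and 1 rose in cerebellum and 10 fell in hippocampus, with a median of -0.22 in each tissue, and 4 of them were called in both with the same direction. The difference was called for 9. Dusp1, a MAP kinase phosphatase, fell in cerebellum from 11.42, 11.31 and 11.27 to 10.14, 10.21 and 10.06, an effect of -1.20, and its hippocampal estimate was -0.25 (adjusted p of the difference 0.000234). Nr4a2, a nuclear receptor, fell by 1.18 in cerebellum and had an estimate of 0.04 in hippocampus. Dusp5 fell by 1.27 and 0.45, and its hippocampal call was lost without wild-type hippocampus array 2 (adjusted p = 0.0535). Ptgs2 and Arc fell in hippocampus, and Ier5 rose by 0.43 in cerebellum. Without wild-type hippocampus array 1 and wild-type cerebellum array 2, 5 of the 35 fell in hippocampus.

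Of 18 circadian clock genes 8 fell and 1 rose in cerebellum (50% called against 10.4% of all genes, median -0.22) and 2 fell in hippocampus (11.1% against 2.1%, median -0.11). For the difference limma called 0 of the 18, against 2.93% of all genes, and 2 had an unadjusted p below 0.05. Per3 fell by 0.49 in cerebellum and 0.43 in hippocampus, where its call was lost without any 1 of 5 arrays, with 0.134 without wild-type hippocampus array 2. Per1 and the clock output gene Dbp fell by 0.44 and 0.32 in cerebellum, with hippocampal estimates of -0.25 and -0.23 that were not called.

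Of 21 glutamate receptor genes 7 fell and 2 rose in cerebellum (42.9% called against 10.4% of all genes, median -0.17) and 3 fell in hippocampus (14.3% against 2.1%, median -0.09). Beside Grm4, the kainate receptor subunit Grik3 fell by 0.46 in cerebellum against an estimate of 0.08 in hippocampus. Grm5, a group I metabotropic receptor, rose by 0.61 in cerebellum from 8.99, 8.66 and 9.26 to 9.56, 9.60 and 9.56, with a hippocampal estimate of -0.11. Of 17 GABA and glycine receptor genes 2 fell and 2 rose in cerebellum and 1 fell in hippocampus. The glycine receptor subunit Glra2 rose by 1.35 in cerebellum, and its called difference of 1.15 was lost without wild-type cerebellum array 2 (adjusted p = 0.0515) or transgenic cerebellum array 3 (0.0568).

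Of 37 receptors for serotonin, dopamine, acetylcholine, opioids and related ligands 11 fell and 3 rose in cerebellum (median -0.20), and 7 fell and 2 rose in hippocampus (median -0.03). The difference was called for 8. Oprl1 and Ntsr1 rose in 1 tissue each, as given above. Chrnb2, a nicotinic receptor subunit, and Cnr1, the cannabinoid receptor, fell by 0.32 and 0.43 in cerebellum, with hippocampal estimates of 0.17 and 0.12.

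Of 40 potassium channel genes 10 fell and 2 rose in cerebellum (30% called against 10.4% of all genes) and 9 fell and 1 rose in hippocampus (25% against 2.1%), with medians of -0.13 and -0.11 and 5 of them with the same direction in both. Kcnk2, the background channel TREK-1, rose in cerebellum from 8.11, 8.08 and 8.04 to 8.92, 9.03 and 8.96, while its hippocampal arrays spanned 7.63 to 7.76 with overlapping genotypes. Kcnq5, an M-current subunit, fell by 0.38 in hippocampus against an estimate of 0.12 in cerebellum, and its hippocampal call was lost without transgenic hippocampus array 3 (adjusted p = 0.0732). Of 11 sodium channel genes 2 rose and 2 fell in cerebellum, and 2 rose in hippocampus. Of 20 calcium channel genes 3 rose and 2 fell in cerebellum and 4 fell in hippocampus. Cacng3, an auxiliary subunit of AMPA receptors, fell by 1.08 in cerebellum with a hippocampal estimate of -0.27 (adjusted p of the difference 0.00954).

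Of 36 genes of calcium stores and calcium-dependent enzymes 10 fell in each tissue, and 1 rose in hippocampus, with 3 shared. The medians were -0.12 and -0.20. Beside Itpka the difference was called for Camkk2, a calmodulin-dependent kinase kinase, which fell by 0.95 in cerebellum and 0.44 in hippocampus (adjusted p of the difference 0.00616). Of 27 cAMP pathway genes 5 fell and 2 rose in cerebellum and 2 fell in hippocampus, with medians of -0.01 in both. That of cerebellum was 0.01 or 0.02 under median centring and both quantile normalisations. Pde1b, a calcium-dependent phosphodiesterase, rose by 0.62 in cerebellum and Adcy8 fell by 0.47, with hippocampal estimates of -0.05 and 0.10. Of 16 regulators of G-protein signalling 3 rose and 2 fell in cerebellum and 1 rose and 1 fell in hippocampus. Rgs17 rose by 0.98 in cerebellum, from 8.64, 8.65 and 8.58 to 9.59, 9.57 and 9.64, with overlapping hippocampal values between 7.71 and 7.97.

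Of 30 postsynaptic density genes 8 fell and 5 rose in cerebellum (43.3% called against 10.4% of all genes, median -0.14), 9 fell in hippocampus (30% against 2.1%, median -0.20), and the difference was called for 7 (23.3% against 2.93%). Nlgn1, a postsynaptic adhesion protein, rose by 0.62 in cerebellum with a hippocampal estimate of 0.01. Ddn, or dendrin, was expressed in hippocampus alone, where it fell from 11.29, 11.34 and 11.50 to 10.63, 10.48 and 10.54. Its cerebellar estimate of -0.22 was called (adjusted p = 0.0454) at a level below the threshold of expression, and the call was lost without any 1 of 8 arrays, with 0.124 without wild-type cerebellum array 3. Of 30 genes of synaptic vesicles and release 6 fell and 2 rose in cerebellum (26.7% called) and 4 fell in hippocampus (13.3%). Syn3, or synapsin III, rose by 0.44 in cerebellum against an estimate of -0.10. Of 26 neuropeptide and granin genes 8 fell and 1 rose in cerebellum, and 2 fell, Penk and Chgb, and 1 rose in hippocampus. Nucb2, the precursor of nesfatin, rose by 0.52 in cerebellum with a hippocampal estimate of -0.10.

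Of 39 axon guidance and adhesion genes 7 rose and 4 fell in cerebellum (28.2% called against 10.4% of all genes), and 2 rose and 3 fell in hippocampus (12.8% against 2.1%). Ntng1, or netrin G1, fell by 1.30 in cerebellum, and the ephrin receptors Epha7 and Epha5 rose by 0.43 and 0.79. The hippocampal estimates of these 3 were -0.24, -0.27 and -0.12, none of them called. Of 32 growth factors and receptors 3 rose and 6 fell in cerebellum (28.1% called against 10.4% of all genes). In hippocampus 1 fell (3.12% against 2.1%). Nrg3, a neuregulin, and its receptor Erbb4 rose by 0.74 and 0.53 in cerebellum, with hippocampal estimates of -0.02 and 0.02. Of 35 genes of the Wnt, TGF-beta and BMP pathways 3 fell in each tissue, and 1 of them was called in both. That is 8.57% of the list in each tissue, against 10.4% of all genes called in cerebellum and 2.1% in hippocampus. Wnt7a, a Wnt ligand of granule neurons, fell by 1.07 in cerebellum and the receptor Fzd7 by 0.66, with hippocampal estimates of -0.24 and -0.08. Of 38 developmental transcription factors of neurons 9 rose and 6 fell in cerebellum (39.5% called against 10.4% of all genes). In hippocampus 1, Neurod6, fell (2.63% against 2.1%). The medians were -0.04 and 0.04. Of this list 6 genes had a called difference with the higher effect in cerebellum, and 2 without wild-type hippocampus array 1 and wild-type cerebellum array 2.

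Of 22 genes typical of striatal projection neurons 7 fell and 3 rose in cerebellum and 3 fell in hippocampus, with medians of -0.19 and -0.07. Penk and Rasd2 fell in both, and Pde1b and Cnr1 changed in cerebellum alone, as given above. Drd1 and Drd2, the dopamine receptors that define these neurons, lay at percentiles 36.7 and 39.7 in cerebellum and 48.2 and 47.3 in hippocampus.

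Choroid plexus RNA differed between arrays of 1 group. Ttr, the transthyretin gene of choroid plexus, measured 12.91, 10.96 and 12.35 in wild-type and 12.84, 13.03 and 13.40 in transgenic cerebellum, and 8.77, 11.49 and 12.45 in wild-type and 11.93, 11.20 and 10.97 in transgenic hippocampus. The mean of 18 choroid plexus and ependyma genes was 7.42 to 7.97 in wild-type and 7.89 to 8.22 in transgenic cerebellum, and 6.19 to 7.07 against 6.35 to 6.63 in hippocampus. In cerebellum Sostdc1, a secreted BMP antagonist, and Otx2, a homeobox factor, were called at 1.31 and 0.82. In hippocampus limma called 0 of the 18, and 0 had an unadjusted p below 0.05. The called difference of Otx2, 0.95, was lost without any 1 of 6 arrays, with an adjusted p of up to 0.0791 without transgenic hippocampus array 3.

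Without wild-type hippocampus array 1 and wild-type cerebellum array 2, which had the lowest Ttr of their groups, 2247 genes were called in cerebellum (688 higher, 1559 lower), 262 in hippocampus and 535 for the difference. The classes then held 424, 62, 89 and 10 genes in the order given above. In the main analysis, with no array left out, 1 of 19 astrocyte markers fell in cerebellum, as did 1 of 18 oligodendrocyte markers. None of either list was called in hippocampus. Of 19 markers each of microglia and endothelium 0 were called there in either tissue, against 10.4% of all genes in cerebellum and 2.1% in hippocampus. In cerebellum 3 of the microglial markers had an unadjusted limma p below 0.05 (median effect -0.13), and 0 of the endothelial markers. Without the wild-type arrays low in Ttr, 1 microglial marker was called lower in cerebellum.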

How the data were processed

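RNA of 12 pools was measured on Affymetrix mouse gene arrays. The authors deposited 1 log2 value for each probe set and array, computed with RMA in the oligo package, per the submitters' processing notes. No tool version was found. Of 35556 probe sets, 21789 were listed with 1 gene symbol, 1621 with several and 12146 were not listed. Symbols were updated through the gene identifiers of a RefSeq table (GRCm38.p6) for 21698 probe sets, and the probe set of highest mean was kept, which left 19938 genes, 999 of them with more than 1 probe set. Within each set of arrays of the same tissue and age, 76 to 150 exact values recurred between arrays, and at most 2 between sets. The tissues were therefore taken as normalised separately. Hippocampus arrays of 20 weeks form a set of their own and may come from a further normalisation run.

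One limma fit (version 3.58.1, R 4.3.3) with 4 groups gave the transgenic minus wild-type effect in each tissue and the difference of effects. P-values were adjusted by Benjamini-Hochberg over all genes and called below 0.05. The median SE was 0.0785 for an effect and 0.111 for the difference. The number of arrays limits the precision. The fit was tested on simulated data.

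The members and gene lists were chosen with earlier results of these data known. Genes named are the 10 of smallest p in each direction of the difference, up to 10 of largest effect in each response class, up to 4 members of smallest p in each list, and Prnp and Htt. Predicted genes were counted and not named. Same-numbered wild-type and transgenic arrays had deviations correlated at 0.111, 0.278 and 0.183 in cerebellum and at -0.558, 0.454 and 0.117 in hippocampus, and no label says that a number marks a shared litter or batch. The main analysis has no replicate block, and the block is an alternative. Other alternatives changed the arrays fitted, the scaling, the variance model, the filter, the probe set per gene and the expression threshold.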

Additional observations from a re-analysis of the deposited data

Results flagged for a closer look

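The genotype effect differed between cerebellum and hippocampus, by the test of the difference itself, for 102 of the named genes. Many of them were named for a small p-value or a call in that test, so their number is no result of its own. Over all 19938 genes the test called 585 (2.93%). Values are cerebellar minus hippocampal effects in log2, each with a limma p-value adjusted over all genes below 0.05.

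Among genes that responded in cerebellum, the effect was higher in cerebellum by a difference of 2.38 for Ifi203, 1.70 for Scn3b, 1.62 for Slc44a5, 1.60 for Lrrc7, 1.56 for Plppr1, 1.51 for Oprl1 and 1.31 for Synpr. It was 1.22 for Sfrp4, 1.15 for Glra2, 1.14 for Pde3a, 1.03 for Igfbp4, 0.99 for Rgs17, 0.95 for Otx2 and 0.91 for Epha5. The difference was 0.90 for Kcnk2, 0.76 for Nrg3, 0.72 for Grm5, 0.70 for Epha7, 0.67 for Lrrtm4, 0.66 for Pde1b and 0.63 for Prox1. The value was 0.62 for Ier5, 0.62 for Nucb2, 0.61 for Nlgn1, 0.54 for Syn3, 0.52 for Rgs9, 0.51 for Erbb4 and 0.51 for Plxnc1. The next value was 0.42 for Grik5.

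Among genes that responded in cerebellum, the effect was lower in cerebellum by a difference of -2.23 for Pappa, -1.85 for Tspan18, -1.65 for Chil5, -1.60 for Eomes, -1.54 for Stap2, -1.50 for Prag1 and -1.50 for Mapk12. It was -1.48 for Vipr2, -1.46 for Grm4, -1.23 for Nr4a2, -1.12 for Clstn2, -1.07 for Ntng1, -0.94 for Dusp1 and -0.83 for Wnt7a. The difference was -0.81 for Cacng3, -0.66 for Cbln1, -0.61 for Neurod1, -0.58 for Fzd7, -0.57 for Adcy8, -0.55 for Cnr1 and -0.54 for Lgi2. The value was -0.54 for Grik3, -0.52 for Tfap2b, -0.52 for Chn2, -0.50 for Rgs6, -0.49 for Chrnb2, -0.47 for Rasgrp2 and -0.47 for Pde2a. The next value was -0.45 for Kcnip1.

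Among genes that responded in hippocampus, the effect was higher in cerebellum by a difference of 1.13 for Ptgs2, 1.11 for Neurod6, 1.09 for Lct, 0.93 for Itpka, 0.89 for Dsp, 0.84 for Lrrc10b and 0.82 for Rasl10a. It was 0.80 for Alox12b, 0.67 for Spink8, 0.67 for Wfs1, 0.65 for Arc, 0.64 for Rfx3, 0.64 for Bok and 0.61 for Stxbp6. The difference was 0.53 for Cacng8, 0.50 for Kcnq5, 0.47 for Smad3, 0.46 for Cacna2d3, 0.42 for Adcy9 and 0.42 for Tgfb2.

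Among genes that responded in hippocampus, the effect was lower in cerebellum by a difference of -0.92 for Rgs13, -0.81 for Scn7a, -0.74 for Scn9a and -0.66 for Ntsr1.

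Among genes that changed the same way in both tissues, the effect was higher in cerebellum by a difference of 0.61 for Penk and 0.60 for Ddn.

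Among genes that changed the same way in both tissues, the effect was lower in cerebellum by a difference of -1.71 for Igfbp5, -0.96 for Plk5, -0.83 for Car4, -0.82 for Dusp5 and -0.51 for Camkk2.

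Among genes that changed in opposite directions, the effect was higher in cerebellum by a difference of 1.79 for Lurap1l, 1.65 for Trpc6, 0.92 for Zfpm1, 0.88 for Raver2, 0.87 for Pkp2, 0.86 for Chrm3 and 0.84 for Calb2. It was 0.74 for Dok6.

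Among genes that changed in opposite directions, the effect was lower in cerebellum by a difference of -0.92 for Tmem163 and -0.69 for Kcnt1.

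Among genes called for the difference alone, the effect was higher in cerebellum by a difference of 0.49 for Sv2b and 0.38 for Cacna1e.

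Among genes called for the difference alone, the effect was lower in cerebellum by a difference of -0.39 for Slc1a6.

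The call of the difference was lost without at least 1 single array for 19 of the 102 genes. The highest adjusted p was 0.144 for Cacna1e (lost without any 1 of 11 arrays), 0.142 for Slc1a6 (11), 0.137 for Smad3 (9), 0.111 for Rgs9 (9), 0.0955 for Grik5 (10), 0.0835 for Tfap2b (8), 0.0792 for Kcnip1 (10), 0.0791 for Otx2 (6), 0.0782 for Lgi2 (8) and 0.0757 for Adcy9 (5). It was 0.0727 for Tgfb2 (3 arrays), 0.0708 for Penk (4), 0.0697 for Pde2a (8), 0.0685 for Sv2b (4), 0.0653 for Scn9a (3), 0.0644 for Rasgrp2 (3), 0.0625 for Arc (4), 0.0568 for Glra2 (2) and 0.055 for Cacna2d3 (1). The call in 1 tissue was lost likewise for 9 of 85 named genes in cerebellum and 13 of 49 in hippocampus. Among hippocampus-responding genes its adjusted p reached 0.18 for Cacng8 (10 arrays), 0.15 for Cacna2d3 (6), 0.14 for Smad3 (4) and 0.0657 for Scn9a (3). Among cerebellum-responding genes it reached 0.121 for Lrrtm4 (4), 0.0958 for Rgs6 (2), 0.0817 for Igfbp4 (4) and 0.057 for Grik5 (4). Kcnq5 and Prox1 are given above.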

How the results depend on the processing

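Of the named calls, 69 of 102 for the difference, 73 of 85 in cerebellum and 32 of 49 in hippocampus held under every alternative applied to the gene. Of these values 0 reversed. A gene left out by an expression filter was not counted as lost there, and the fits of each tissue alone are given as counts only. One alternative put all 18 arrays in 1 fit, which adds mice of another age and sex. It called 6.17% of the 19938 genes in cerebellum, 0.858% in hippocampus and 1.54% for the difference, against 10.4%, 2.1% and 2.93%. That fit gave 254 cerebellum-responding, 34 hippocampus-responding, 40 same-direction and 7 opposite genes, and 189 differences with estimates of opposite sign. Quantile normalisation within each tissue gave 155 hippocampus-responding and 28 opposite genes and 539 differences of opposite sign, and over all 12 arrays 162 and 30. Hippocampus fitted alone gave 176 calls (0.883%). With the replicate block, 87 genes had the same and 10 opposite directions, and the calls were 1918, 308 and 503 for cerebellum, hippocampus and the difference. The block also ended 15 named calls, among them the differences of Slc1a6 (adjusted p = 0.0999), Cacna1e (0.0834), Grik5 (0.0692), Rgs9 (0.0638), Adcy9 (0.0593), Pde2a (0.0578) and Smad3 (0.0555). Without the pair of wild-type arrays low in Ttr, chosen after seeing the data, 262 hippocampal calls (1.31%) and 10 opposite genes were found. Genes expressed in cerebellum alone numbered 1739 at the 99th percentile of olfactory receptors, and in hippocampus alone 892 at the median of all genes. Leaving out 1 array at a time called 6.25% to 14.6% of genes in cerebellum, 0.787% to 2.06% in hippocampus and 1.76% to 2.74% for the difference. The classes then held 278 to 421, 42 to 82, 48 to 143 and 6 to 17 genes, and 212 to 362 differences had opposite signs. The cause of these shifts was not tested, beyond the fewer arrays in the leave-one-out fits.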

Other observations

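Hippocampus arrays of 20-week-old mice, fitted with the other 12 arrays, called 1119 genes (5.61%) between genotypes. Of the 93 genes that responded in hippocampus alone at 10 weeks, 93 had the same sign at 20 weeks and 78 were called in that direction. Of the 131 genes that changed the same way in both tissues, 130 kept the hippocampal sign and 98 were called. Of the 18 opposite genes, 17 kept the hippocampal sign and 10 were called. Of the 431 genes that responded in cerebellum alone, 244 had the sign of their cerebellar effect in 20-week hippocampus, where 23 were called in the cerebellar direction and 12 against it. These are separate pools of mice of another age and sex, so age and sex cannot be told apart here. Their arrays may also come from another normalisation run. No cerebellum of that age was analysed here.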
